A study of Saccharomyces cerevisiae with 4 samples.

Results

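The aldo-keto reductase family of *Saccharomyces cerevisiae* was followed through 6 genes chosen by name: *ARA1*, *YJR096W*, *GRE3*, *GCY1*, *YPR1* and *YDL124W*. All 6 had a probe set of their own on the Affymetrix Yeast Genome S98 array, out of 5656 genes with such a probe set, and all 6 were bright enough to be among the 5114 genes tested. Each member is represented by 1 probe set, so no choice between probe sets was needed. *ARA1* lies on chromosome II and *YJR096W* on chromosome X. The other members lie elsewhere: *GRE3* on chromosome VIII, *GCY1* on chromosome XV, and *YPR1* and *YDL124W* on chromosome IV.

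Aldo-keto reductases are soluble enzymes that reduce aldehydes and ketones to alcohols, in most cases with NADPH as the electron donor. In yeast they act on sugars such as xylose and arabinose and on reactive aldehydes such as methylglyoxal, and their substrates overlap. Part of the family is known to be induced by osmotic or oxidative stress.

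The mutant was MEY12A, which is the haploid MATα strain SEY6210 with *CCW12*, the gene of an abundant cell wall mannoprotein, disrupted by *URA3*. The wild type was SEY6210 itself. Both strains carry the auxotrophic markers of SEY6210 in *URA3*, *LEU2*, *HIS3*, *TRP1* and *LYS2* and lack *SUC2*, apart from the *URA3* copy in the mutant, and both were grown in YPD with added adenine to an OD600 of 1. There were 2 arrays of *ccw12*Δ and 2 of the wild type, and each array carried labelled cRNA made from 3 pooled RNA preparations. The mutant is 1 strain, so the effect of the deletion and any other difference of that strain from SEY6210 cannot be told apart. The labels of the mutant arrays name SEY6219 as the parent in 1 field, and the description of wild type replicate 2 names SEY6211, a MATa strain, whereas its title and strain field name SEY6210. The MATα genes *MF(ALPHA)1*, *MF(ALPHA)2* and *STE3* were bright on all 4 arrays (lowest signal 1331). *MF(ALPHA)2* was lower in the mutant, with signals of 2791 and 3547 in *ccw12*Δ against 9246.5 and 8124 in SEY6210 (log2 fold change -1.46, limma adjusted p = 0.0340). Of the MATa genes, *STE2* and *BAR1* were too dim to be tested, *MFA1* had signals between 33.4 and 117 and *MFA2* between 205 and 271. *STE2* gave 30.4 and 40 in *ccw12*Δ, against 15.9 and 18.6 in the wild type. *BAR1* gave 40.3 and 36.2 in *ccw12*Δ, against 1.7 and 1.2 in the wild type.

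*CCW12* itself gave 4260 and 3919 in *ccw12*Δ, against 24314 and 24118 in the wild type (log2 fold change -2.57, standard error (SE) 0.17, limma adjusted p = 0.00419). *URA3*, the gene used to disrupt *CCW12*, was too dim to be tested. It gave 59.5 and 54.2 in *ccw12*Δ, against 3.9 and 6.7 in the wild type. Array signals are brightness values on a linear scale, used here as deposited, and a log2 fold change here is the mean log2 signal of *ccw12*Δ minus that of the wild type. The median signal lay at 141 and 144 on the *ccw12*Δ arrays and at 122 and 118 on the wild-type arrays. The *CCW12* probe set thus stayed far above the median in the mutant, and the source of that signal was not tested. The signal of 3' over 5' probes of the control genes *ACT1*, *SRB4* and *SPT15*, a sign of RNA integrity, was highest on wild type replicate 1. For *ACT1* this ratio was 1.49 on both *ccw12*Δ arrays, 2.99 on wild type replicate 1 and 1.38 on wild type replicate 2. Its part in the results below was not tested, and values without that array are given for the members that passed a test.

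In *ccw12*Δ the transcripts of *ARA1* (2.31-fold) and *YJR096W* (2.55-fold) were the 2 of the family with a mean increase above 2-fold, and the other 4 were between 1.05-fold and 1.39-fold. The increase passed the test over all genes for *YJR096W* alone. Thus 1 of the 6 members was called higher and none lower, where 2.62% of the genes tested were called higher and 0.313% lower, 2.93% in either direction (limma with Benjamini-Hochberg adjustment, 2 arrays per strain, threshold 0.05). At an unadjusted p under 0.05 from limma, 2 members were higher and 0 lower, where 17.1% of all genes tested were higher and 3.46% lower, 20.6% in either direction. The median log2 fold change of the 6 members was 0.31, and that of all genes tested was 0.19. By a fold rule after the methods of the study, a mean change of at least 2-fold with all 4 mutant-to-wild-type ratios in 1 direction, 2 members were higher and none lower, beside 10.5% and 2.05% of all genes, or 12.5% in either direction. The study also required Present calls and Increase or Decrease calls, which were not used here.

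**Figure D1:**
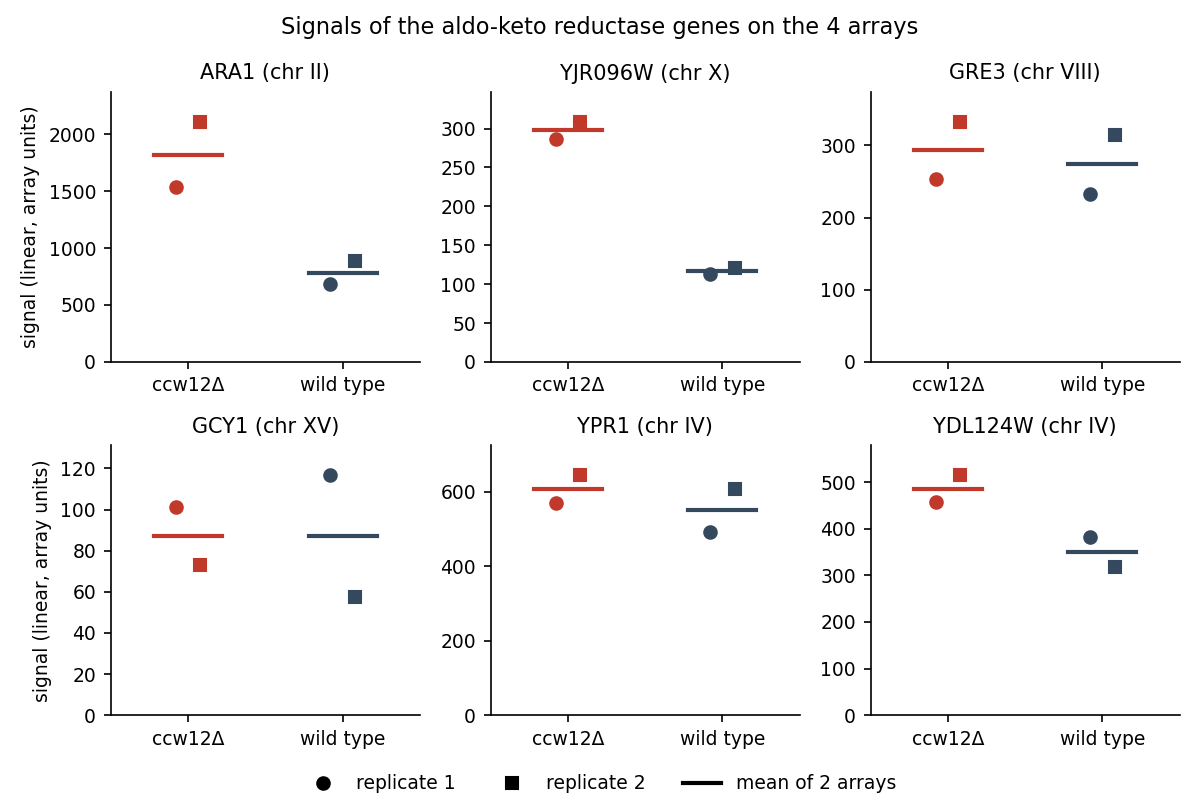
Signal of each member (linear array units, vertical axes starting at 0) on the 2 *ccw12*Δ arrays and the 2 wild-type arrays, with a line at the mean of each strain. For *ARA1* and *YJR096W* both mutant arrays lie far above both wild-type arrays, *YDL124W* shows a small gap, and the strains overlap for *GRE3*, *GCY1* and *YPR1*.

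*YJR096W* encodes an aldo-keto reductase that reduces xylose and arabinose in vitro. Its signal was 287 and 308 in *ccw12*Δ, against 112 and 120.5 in SEY6210. The strains did not overlap, and within each strain the 2 arrays differed by 0.11 (*ccw12*Δ) and 0.10 (wild type) on the log2 scale. The mean was 297.5 ± 15.4 in *ccw12*Δ, against 116 ± 5.73 in SEY6210 (SD, n = 2 arrays each). All 4 ratios lay between 2.38 and 2.74. The log2 fold change was 1.35 (SE 0.26, 95% interval 0.74 to 1.96), or 2.55-fold, with an adjusted p of 0.0462 from limma. This p lies close to the threshold, and the call was lost in 8 of 16 alternative settings, among them all 4 other scalings of the arrays and leaving out either mutant array. Without *ccw12*Δ replicate 1 the log2 fold change was 1.41 (adjusted p = 0.120 from limma), and without replicate 2 it was 1.30 (adjusted p = 0.239 from limma). It was 1.30 without wild type replicate 1 and 1.40 without wild type replicate 2, and the call held (adjusted p = 0.000794 and 0.00012 from limma).

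*ARA1* encodes the large subunit of the NADP+-dependent D-arabinose dehydrogenase. It gave 1536 and 2107 in *ccw12*Δ, against 685 and 882 in SEY6210. Again the lower mutant array lay above the higher wild-type array, and replicate 2 was the brighter array in both strains. The mean was 1821 ± 404 in *ccw12*Δ, against 784 ± 140 in SEY6210 (SD, n = 2 arrays each), with 4 ratios from 1.74 to 3.08. The log2 fold change was 1.21 (SE 0.30, 95% interval 0.52 to 1.90), or 2.31-fold. *ARA1* met the fold rule but did not pass the test over all genes (unadjusted p = 0.00414 and adjusted p = 0.0695 from limma). It passed without wild type replicate 1, with a log2 fold change of 1.03 and an adjusted p of 0.00232, and without wild type replicate 2, with 1.39 and 9.3e-06 (limma). In both of these fits the spread comes from the pair of mutant arrays alone. With the replicate number as a block, 2 members passed instead of 1, as *ARA1* had an adjusted p of 0.0448 from limma.

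*YDL124W* encodes an NADPH-dependent reductase of alpha-keto amides and alpha-keto esters. Its signal was 458 and 515 in *ccw12*Δ, against 381 and 318.5 in SEY6210. The strains did not overlap, but the gap between them was of the order of the gap between the wild-type arrays. The mean was 486 ± 40.4 in *ccw12*Δ, against 349.9 ± 44.3 in SEY6210 (SD, n = 2 arrays each). The log2 fold change of 0.48 (SE 0.28, 95% interval -0.17 to 1.12) did not pass (adjusted p = 0.380 from limma). Its 4 ratios lay between 1.20 and 1.62, so that *ARA1*, *YJR096W* and *YDL124W* are the 3 members with every ratio above 1.

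*GRE3* encodes an aldose reductase that turns xylose into xylitol and also reduces methylglyoxal, and it takes its name from a group of genes that respond to osmotic stress. Its signal was 254 and 332.5 in *ccw12*Δ, against 233 and 315 in SEY6210. The arrays followed their replicate number more than their strain, since replicate 2 was brighter in both. The log2 fold change was 0.10 (SE 0.30, 95% interval -0.60 to 0.80, adjusted p = 0.880 from limma).

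*GCY1* and *YPR1* are paralogs from the whole-genome duplication of yeast. *GCY1* encodes a glycerol dehydrogenase and is induced by galactose, and *YPR1* encodes a reductase of 2-methylbutyraldehyde. *YPR1* gave 569 and 644 in *ccw12*Δ, against 491 and 608 in SEY6210, and its log2 fold change was 0.15 (SE 0.28, 95% interval -0.51 to 0.81, adjusted p = 0.803 from limma). The wild-type range reached into the mutant range. *GCY1* gave 101 and 72.9 in *ccw12*Δ, against 117 and 57.4 in the wild type, where genes needed a mean log2 signal equal to a signal of 33.6 to be tested. Both mutant arrays lay between the wild-type arrays, which differed by 1.02 on the log2 scale. The log2 fold change was 0.07 (SE 0.41, 95% interval -0.89 to 1.04, adjusted p = 0.940 from limma). For *GRE3*, *YPR1* and *GCY1* the sign of the difference turned with the scaling of the arrays. Differences within the intervals given remain possible with 2 arrays per strain, and the intervals do not mark a limit of detection.

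The 2 members that met the fold rule lie on chromosomes whose genes were higher as a whole. Over all genes tested, the median log2 fold change was 0.94 on chromosome II (353 genes), 1.07 on chromosome X (324 genes) and 0.91 on chromosome IX (177 genes), and between -0.04 and 0.22 on the others. *ARA1* ranked 106th of 353 on chromosome II and *YJR096W* 90th of 324 on chromosome X. *ARA1* lay 0.27 and *YJR096W* 0.29 above the median of its chromosome on the log2 scale. On chromosome II 11.9% of the genes were called higher and 44.5% met the fold rule upward, and on chromosome X 18.2% and 55.2% did. Among all genes tested, the log2 fold change of *ARA1* was at percentile 92.8 and that of *YJR096W* at percentile 95.2. Among the genes of their own chromosomes, *ARA1* was at percentile 70 and *YJR096W* at percentile 72.2.

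**Figure D2:**
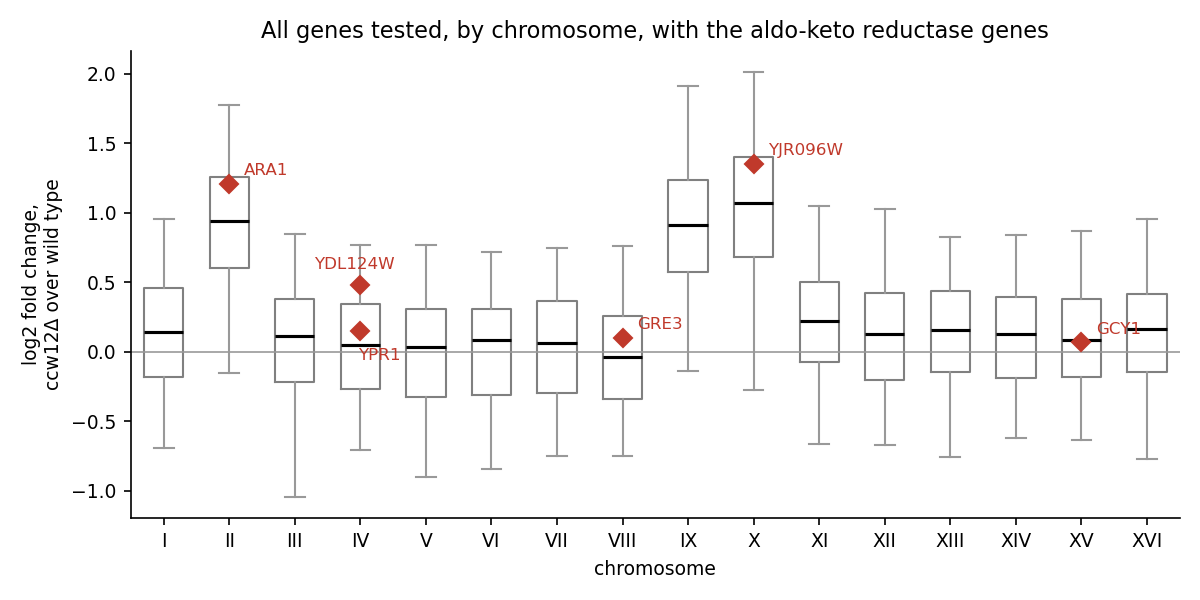
Log2 fold change of *ccw12*Δ over the wild type (vertical axis) for the genes tested on chromosomes I to XVI, by chromosome (line at the median, box from the lower to the upper quartile, whiskers to percentiles 5 and 95), with the 6 members as diamonds. Tested genes of the mitochondrial genome are not shown. *ARA1* and *YJR096W* lie inside the boxes of chromosomes II and X, near their upper edges, and those boxes and that of chromosome IX lie above the other boxes.

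The other members lie on chromosomes with medians near 0, namely 0.05 (IV), -0.04 (VIII) and 0.09 (XV). Within its chromosome *YDL124W* was at percentile 85.1, *GRE3* at percentile 61.7, *YPR1* at percentile 58.7 and *GCY1* at percentile 47.9. In an alternative called chromosome-centred, each array was shifted, chromosome by chromosome, so that the genes of a chromosome had a median deviation of zero from their means in SEY6210. The 6 members then had log2 fold changes between -0.04 and 0.42, and none passed in limma, nor at an unadjusted p under 0.05. *YDL124W* had the highest, 0.42 (SE 0.25, limma adjusted p = 0.534). *YJR096W* had 0.28 (95% interval -0.33 to 0.90, limma adjusted p = 0.663) and *ARA1* had 0.28 (95% interval -0.34 to 0.90, limma adjusted p = 0.671). Whether the increase of these genes and that of their chromosomes have 1 source was not tested.

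**Figure D3:**
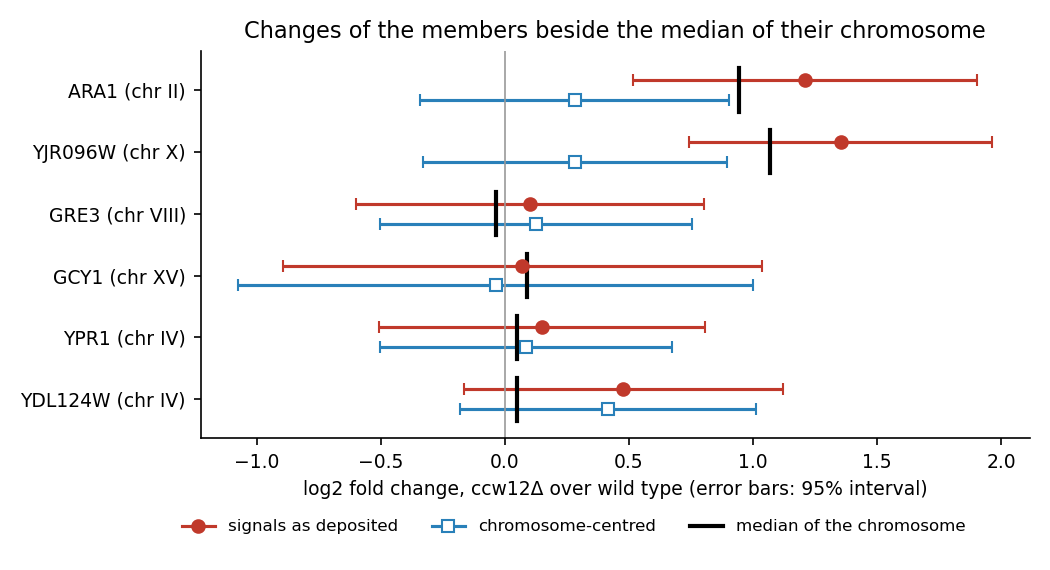
Log2 fold change of each member (horizontal axis, *ccw12*Δ over the wild type, with the 95% interval) from the signals as deposited (filled circles) and after centring by chromosome (open squares), with a bar at the median of its chromosome. The circles of *ARA1* (1.21) and *YJR096W* (1.35) lie to the right of bars at 0.94 and 1.07, inside intervals that include those bars, and the squares of all 6 members lie between -0.04 and 0.42 with intervals that include 0.

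The contrast between the pair on chromosomes II and X and the other members was followed array by array. The mean log2 signal of *ARA1* and *YJR096W* minus that of the other 4 members was 1.21 and 1.43 in *ccw12*Δ, against 0.05 and 0.42 in SEY6210. The strains did not overlap, and the means differed by 1.08 on the log2 scale, beside gaps of -0.22 between the mutant arrays and -0.37 between the wild-type arrays (replicate 1 minus replicate 2). The pair had a mean log2 fold change of 1.28 and the other members one of 0.20. With chromosome-centred arrays the difference between the pair and the others was 0.14. No p is given here, since the pair was set apart with the values of its chromosomes known. An exact permutation test of 2 arrays against 2 cannot go below a two-sided p of 0.333.

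The genes next to the members were set beside them. Of the 5 annotated protein-coding genes on each side of *YJR096W*, 8 were tested. All 8 had a positive log2 fold change, from 0.64 to 1.47 with a median of 0.99, and 2 of them lay above *YJR096W*. *YJR098C* was the single neighbour called higher, with 190 and 209.5 in *ccw12*Δ against 80.7 and 69.5 in SEY6210 (log2 fold change 1.41, SE 0.28, limma adjusted p = 0.0474). All 8 were higher at an unadjusted p under 0.05, as were 73.1% of the genes tested on chromosome X and 17.1% of all genes. Around *ARA1* 7 neighbours were tested, with a median log2 fold change of 0.83 and a range from -0.44 to 1.58, and 2 of them lay above *ARA1*. None of the 7 passed in limma, and 4 were higher at an unadjusted p under 0.05, beside 68.3% of the genes tested on chromosome II. The lowest of them was *ADH5*, an alcohol dehydrogenase gene singled out after its values were seen, with 235 and 291 in *ccw12*Δ against 405 and 310.5 in SEY6210.

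Around the members elsewhere the medians were near 0. The neighbours of *GRE3* (9 tested) had a median log2 fold change of -0.01, those of *GCY1* (10 tested) one of -0.05, those of *YPR1* (6 tested) one of -0.001 and those of *YDL124W* (10 tested) one of 0.25. None of them passed in limma. At an unadjusted p under 0.05, 1 neighbour of *GCY1* was higher and 1 lower, 1 of *YPR1* was lower, and 0 of *GRE3* and *YDL124W* were. Of all genes tested, 17.1% were higher and 3.46% lower at that level. The share that was higher was 8.89% on chromosome XV and 4.41% on chromosomes IV and VIII. The widest range was that around *GCY1*, from -1.67 to 0.79.

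**Figure D4:**
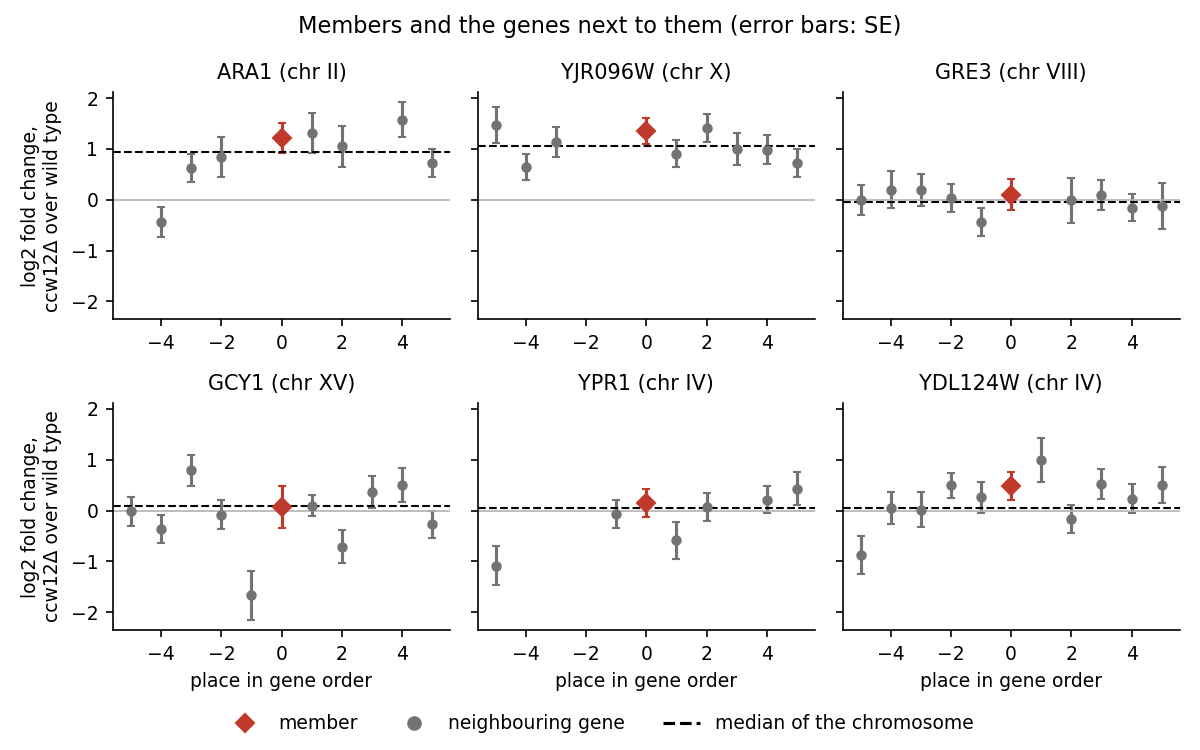
Log2 fold change (vertical axis, *ccw12*Δ over the wild type, with standard errors) of each member at place 0 and of the tested genes among the 5 annotated genes on each side (horizontal axis, place in gene order), with a dashed line at the median of the chromosome. Around *YJR096W* all 8 neighbours lie between 0.64 and 1.47, around *ARA1* all but *ADH5* lie at 0.63 or above, and around the other members the points lie on both sides of 0.

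Likeness between members was measured as the Euclidean distance between their 4 log2 signals, each taken as the deviation from the mean of that gene. *GRE3* and *YPR1* were closest (0.180), followed by *ARA1* and *YJR096W* (0.342), and *ARA1* and *GCY1* were farthest apart (1.64). The paralogs *GCY1* and *YPR1* were at a distance of 1.05. Between the arrays of 1 strain they moved in opposite ways. Replicate 2 minus replicate 1 was 0.18 in *ccw12*Δ and 0.31 in the wild type for *YPR1*, and -0.47 in *ccw12*Δ and -1.02 in the wild type for *GCY1*, on the log2 scale.

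The genes most like each member were found by the same distance over 4 arrays, which is few for such a measure. For *YJR096W* they were *IDH1* (0.0251), a subunit gene of the mitochondrial isocitrate dehydrogenase on chromosome XIV, and *YAK1* (0.0272), a protein kinase gene on chromosome X. *IDH1* had 1696 and 1842 in *ccw12*Δ against 660 and 724 in SEY6210. For *ARA1* they were *RAD16* (0.0607), a DNA repair gene, and *ROX3* (0.0636), a gene of the Mediator complex, both on chromosome II. The wild-type signals of *RAD16*, 24.4 and 31.5, lay under the level of 33.6. For *GRE3* they were *ADE3* (0.0296) and *ARP7* (0.0309), and for *YPR1* they were *CDC1* (0.0258) and *SGV1* (0.0316). For *YDL124W* they were *MRX6* (0.0320) and *SNR35* (0.0327), and for *GCY1* *NUC1* (0.0561) and *MED2* (0.115).

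Genes of the same superfamily and of the pathways around these enzymes were taken as 8 lists. They hold 77 genes, of which 64 were tested, 8 were too dim and 5 had no single-gene probe set. In limma 1 was higher, 0 were lower and 63 did not pass, beside 2.62% higher and 0.313% lower over all genes. At an unadjusted p under 0.05, 21 of the 64 were higher and 1 lower, beside 17.1% and 3.46% of all genes, and these shares are the background for the counts in each list as well. The median log2 fold change was 0.51, against 0.19 over all genes tested, with 47 of 64 values above 0. The fold rule held upward for 13 and downward for 1, beside 10.5% and 2.05% of all genes, and 11 of the 64 lie on chromosomes II, IX or X.

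The other superfamily genes were *ARA2*, which encodes an NAD+-dependent arabinose dehydrogenase, the aryl alcohol dehydrogenase (*AAD*) genes and *YPL088W*. Of 9, 5 were tested, 1 was too dim and 3 had no single-gene probe set. None passed in limma, 1 was higher at an unadjusted p under 0.05, and the median log2 fold change was 0.52. That gene was *YPL088W*, a putative aryl alcohol dehydrogenase gene on chromosome XVI, with 188.5 and 143 in *ccw12*Δ against 54.1 and 81.2 in SEY6210. The strains did not overlap, and it met the fold rule (log2 fold change 1.31, SE 0.33, limma adjusted p = 0.0756). With chromosome-centred arrays the log2 fold change of *YPL088W* was 1.15 (limma adjusted p = 0.262). *AAD10*, on chromosome X, had a log2 fold change of 0.76 (SE 0.33, limma adjusted p = 0.255), and -0.31 with chromosome-centred arrays. The *AAD* genes are close in sequence, so their signals may be shared between copies.

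Of 12 further reductases and dehydrogenases of small carbonyl compounds, all tested, 1 was higher and 11 did not pass (limma), with a median of 0.56, and 0.29 over those outside chromosomes II, IX and X. The higher gene was *YNL134C* on chromosome XIV, which encodes an aldehyde reductase that uses NADH. It had 1800 and 2420 in *ccw12*Δ against 774.5 and 841 in SEY6210 (log2 fold change 1.37, SE 0.28, limma adjusted p = 0.0497). This p is at the edge of the threshold, and with chromosome-centred arrays *YNL134C* had 1.24 (limma adjusted p = 0.149). By the fold rule 5 of the 12 were higher, *YNL134C* and *AYR1*, *ARI1*, *BDH2* and *GRE2*. *ARI1* rested on *ccw12*Δ replicate 2, with 252 and 902 in *ccw12*Δ against 167 and 195 in SEY6210, and its log2 fold change of 1.40 was 0.48 without that array and 2.32 without *ccw12*Δ replicate 1. That of *BDH2*, 1.44, was 0.78 without wild type replicate 1. Its signals were 75.1 and 54.3 in *ccw12*Δ against 14.9 and 37.1 in SEY6210, of which 14.9 lay under the level of 33.6. *AYR1*, an acyl-dihydroxyacetone-phosphate reductase gene, lies on chromosome IX, and its log2 fold change was 1.20, and 0.27 with chromosome-centred arrays. Without *ccw12*Δ replicate 2 that of *AYR1* was 0.995. *GRE2*, the methylglyoxal reductase gene, had 86.2 and 97.4 in *ccw12*Δ against 32.2 and 47.1 in SEY6210 (log2 fold change 1.23, SE 0.36, limma adjusted p = 0.101). The lower wild-type signal of *GRE2* lay under the level of 33.6, and its log2 fold change was 0.96 without wild type replicate 1. Its strains did not overlap, whereas those of *GRE3* did.

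No gene passed in limma in the 6 lists that follow. Of 8 tested genes of xylose, polyol and arabinose use, the median log2 fold change was 0.15 and 1 was higher at an unadjusted p under 0.05. The largest changes were those of *RPE1*, an epimerase gene of the pentose phosphate pathway on chromosome X (0.78), and *XYL2*, a xylitol dehydrogenase gene (0.64). With chromosome-centred arrays *RPE1* had -0.29. Of 7 tested genes of glycerol and dihydroxyacetone, the median was 0.61 and 3 were higher at an unadjusted p under 0.05. The fold rule held for *GUT2*, a mitochondrial glycerol-phosphate dehydrogenase gene on chromosome IX (1.42, and 0.49 with chromosome-centred arrays), and *GPP2*, a glycerol phosphatase gene (1.22). *GUT2* had 0.82 without wild type replicate 2, and *GPP2* had 0.83 without *ccw12*Δ replicate 2 and 0.72 without wild type replicate 1. Of 4 tested genes of methylglyoxal removal, the median was 0.09 and *GRE2* was the single one at an unadjusted p under 0.05, while the glyoxalase gene *GLO1* had 0.22.

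Of 11 tested genes of NADPH supply, the cofactor of most of the members, the median log2 fold change was 0.43, and 2 were higher at an unadjusted p under 0.05. The largest changes were those of *IDP2*, a cytosolic isocitrate dehydrogenase gene (0.999986, just short of the fold rule), and *ALD6*, a cytosolic acetaldehyde dehydrogenase gene (0.68). Of the 11, 8 had a log2 fold change above 0, and the lowest value was -0.29. Of 5 tested genes of the galactose regulon, the median was 0.21, with 1 higher and 1 lower at an unadjusted p under 0.05. *GAL2*, the galactose permease gene, had 45.5 and 182 in *ccw12*Δ against 56.1 and 16.9 in SEY6210, so the strains overlapped at a log2 fold change of 1.56. *GAL4*, the gene of the transcriptional activator, met the fold rule downward (-1.47, and -0.96 without *ccw12*Δ replicate 2). Its signals were 35.7 and 17.5 in *ccw12*Δ against 72.2 and 66.8 in SEY6210. *GAL7*, on chromosome II, met the rule upward (1.36, and 0.43 with chromosome-centred arrays), with 66.4 and 77.2 against 27.7 and 28.1. The lower mutant signal of *GAL4* and both wild-type signals of *GAL7* lay under the level of 33.6. Of 13 tested markers of the stress response, the median was 0.73 and 7 were higher at an unadjusted p under 0.05. Of these 13, 11 had a log2 fold change above 0, while *GAD1* had -0.68 and *PGM2* had -0.39. The 4 that met the fold rule were the heat shock protein genes *HSP12* (1.42), *HSP26* (1.24) and *HSP104* (1.02) and the trehalose synthase gene *TPS1* (1.11), of which *HSP26* and *TPS1* lie on chromosome II. With chromosome-centred arrays *HSP26* had 0.31, *TPS1* had 0.18 and *HSP104* had 0.91. *HSP12* rested on 1 array, with 385 and 1388 in *ccw12*Δ against 350.2 and 214 in SEY6210, and had 0.49 without *ccw12*Δ replicate 2 and 2.34 without *ccw12*Δ replicate 1. *HSP26* had 0.80 without wild type replicate 1, and *HSP104* had 0.95. Without *ccw12*Δ replicate 2, *HSP26* had 0.91, *HSP104* had 0.85 and *TPS1* had 0.996.

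**Figure D5:**
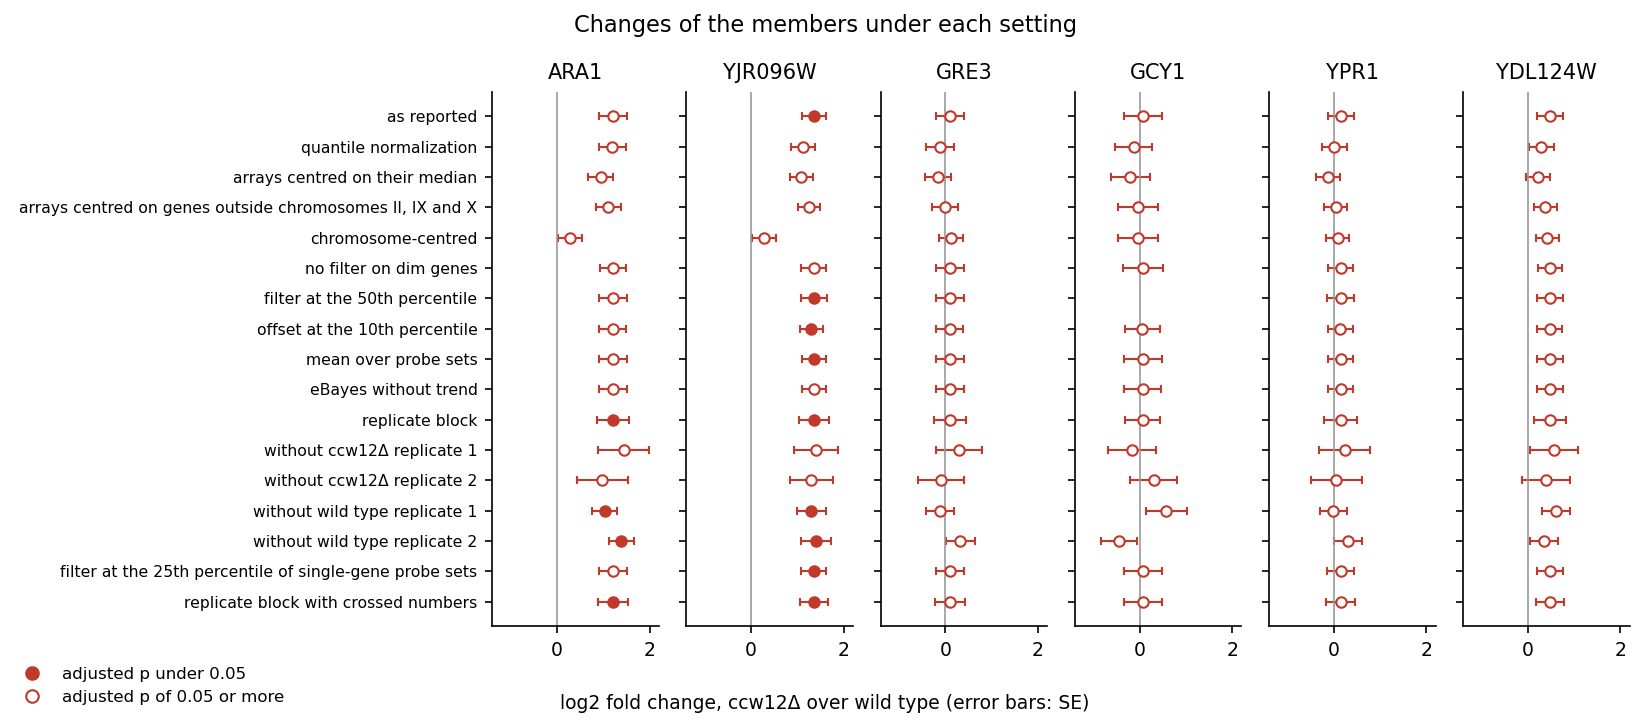
Log2 fold change of each member (horizontal axis, *ccw12*Δ over the wild type, with standard errors) as reported and under each alternative setting, 1 per line, with filled circles where the adjusted p from limma was under 0.05. The values of *ARA1* lie at 0.94 or above and those of *YJR096W* at 1.09 or above in every setting but the chromosome-centred one, while their calls vary, and the values of *GRE3*, *GCY1* and *YPR1* lie on both sides of 0.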

How the data were processed

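Total RNA was measured on 4 single-colour arrays. The authors converted the scans with GCOS (MAS5 in the submitters' processing notes), and the deposited intensity values are 1 linear signal per probe set. Software versions and any scaling target are not given in the sources used here. Of 9335 probe sets, 6504 name 1 gene, 328 several and 2443 none, beside 60 controls. Names, chromosomes and the start positions that gave the gene order came from RefSeq (R64). The members and lists were chosen with earlier results of these data known. By rule, the text names the members, strain checks, the 2 genes most like each member, called neighbours, and of each list the called genes or otherwise the 2 of largest change. *ADH5*, *GAD1* and *PGM2* were named after their values were seen, as were the other genes past the fold rule.

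Signals of zero (19) were raised to 0.1 before log2. The brightest single-gene probe set stood for each gene. Genes whose mean log2 signal was below 5.07, which is percentile 25 of the non-control probe sets, were left out. The comparison of *ccw12*Δ with SEY6210 used limma 3.58.1 (R 4.3.3, eBayes with trend, prior degrees of freedom 5.48, residual 2), and the script was tested on simulated data. The p-values measure the spread between pools of RNA, and the number of arrays limits the precision. Alternatives covered scaling, filters, offset, probe sets, variance model, a replicate block and each array left out. A filter over single-gene probe sets, a crossed block and values of single list genes without 1 array were added after seeing the data.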

Additional observations from a re-analysis of the deposited data

How the results depend on the processing

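The 2 arrays per strain limit all results. The scalings lowered the median log2 fold change of all genes by 0.15 (quantile), 0.27 (arrays centred on their median), 0.10 (centred on genes outside chromosomes II, IX and X) and 0.19 (chromosome-centred). In the same order, *YJR096W* had 1.13, 1.09, 1.25 and 0.28 and was not called. It was also not called, at 1.35, without the filter on dim genes and without the trend. *ARA1* passed, at 1.21, with the replicate block (adjusted p = 0.0448 from limma) and with the crossed block (0.04998). *YDL124W* passed in no setting. The sign of *GCY1* turned with quantile scaling (-0.13), median centring (-0.20), centring outside the 3 chromosomes (-0.034) and by chromosome (-0.038). That of *GRE3* turned in the first 3 of these (-0.12, -0.17 and -0.0034), and that of *YPR1* with median centring (-0.12). Leaving out 1 array gave ranges of 0.98 to 1.44 (*ARA1*), 1.30 to 1.41 (*YJR096W*), -0.12 to 0.32 (*GRE3*), -0.44 to 0.58 (*GCY1*), -0.0056 to 0.30 (*YPR1*) and 0.35 to 0.61 (*YDL124W*), with 0 to 2 members, 0 to 20 list genes and 33 to 1495 genes called, and 598 to 1023 genes past the fold rule. In such fits the spread is that of the strain with both arrays, and the lone array is assumed to vary like it.

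The number of members called was 0 under the 4 scalings, without the filter and without the trend, and 2 with either block. Of all genes, 150 were called (134 higher), and 80 (64 higher) with quantile scaling, 33 (22) with median centring, 37 (29) with centring outside the 3 chromosomes, 16 (6) with chromosome centring, 37 without the filter, 241 with a filter at the 50th percentile, 67 without the trend, 253 with the filter over single-gene probe sets, 351 with the block and 385 with the crossed block. The fold rule held for 640 genes (83.6% higher), for 304 (40.8% higher) with chromosome centring, and the share that was higher among such genes was 57.4% with median centring and 72.1% with quantile scaling. Of the list genes 1 was called, 0 under the 4 scalings, without the filter, without the trend and with the mean over probe sets, 2 with the filter at the 50th percentile, with that over single-gene probe sets and with the block, and 6 with the crossed block. The cause of these changes was not tested. The replicate numbers do not pair the arrays by any label; deviations of same-numbered arrays from their strain means had a correlation of -0.14 across 5114 genes, and the replicate block changed no other call of a member. *GCY1* has no value at the 50th percentile filter, which it did not reach.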
